A study of Homo sapiens with 6 samples.

Results

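The miR-26 and miR-101 families are described here by their 7 mature arms, chosen by name from the 2588 mature miRNAs in the count table. They are the 5p arms of miR-26a and miR-26b, 3 miR-26 passenger strands from the 3p side, the 3p guide strand of miR-101 and its 5p passenger. The libraries come from Caco-2, an established colorectal adenocarcinoma cell line, and all 6 were made from RNA of unmodified cells. Before immunoprecipitation the protocol of the study decapped and heat-denatured the RNA and set part of it aside as input. The 3 input libraries sample that RNA directly, and the 3 m7G-RIP libraries sample what was recovered with an antibody against N7-methylguanosine (m7G). The labels do not say whether replicates came from separate cultures, so p-values measure the spread between these libraries, which may be technical. No mock immunoprecipitation was analysed here, so binding to beads or to the antibody without m7G was not measured.

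EZH2 is the catalytic subunit of Polycomb repressive complex 2, which methylates lysine 27 of histone H3 and keeps genes silent. miR-26a and miR-101 are well-known repressors of EZH2, and lowered levels of both have been reported in tumours. A miRNA gene is transcribed as a hairpin whose arms are cut out by DROSHA and DICER. One arm, the guide, is loaded into Argonaute and finds targets through its seed, bases 2 to 8, while the passenger arm is mostly degraded. The miR-26 hairpins sit in introns of the small CTD phosphatase genes and are transcribed with them.

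The mature sequences are printed from 5′ to 3′ to show which arms share a seed, with the seed in capitals. They come from RefSeq (GRCh38.p14), which matched all 7 arms.

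hsa-miR-26a-5p: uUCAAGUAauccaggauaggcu
hsa-miR-26b-5p: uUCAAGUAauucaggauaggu
hsa-miR-26a-1-3p: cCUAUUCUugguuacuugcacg
hsa-miR-26a-2-3p: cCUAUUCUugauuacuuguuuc
hsa-miR-26b-3p: cCUGUUCUccauuacuuggcu
hsa-miR-101-3p: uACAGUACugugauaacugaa
hsa-miR-101-5p: cAGUUAUCacagugcugaugcu

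The miR-26 guides share the seed UCAAGUA and differ from each other by C11U and C21U, counted from the 5′ end of miR-26a-5p, and by 1 base in length. The miR-26a passengers share the seed CUAUUCU and carry 5 substitutions, so they tell the miR-26a genes apart where the guide cannot. miR-101-3p has the unrelated seed ACAGUAC.

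In GRCh38, the build to which the authors mapped, the hairpins lie on 5 chromosomes. MIR26A1 lies in a CTDSPL intron (chr3:37969404-37969480, plus strand), MIR26A2 in a CTDSP2 intron (chr12:57824609-57824692, minus strand), and MIR26B in a CTDSP1 intron (chr2:218402646-218402722, plus strand). MIR101-1 lies in an intron of JAK1, which encodes a kinase of cytokine receptors (chr1:65058434-65058508, minus strand). MIR101-2 lies in an intron of RCL1, which encodes a protein of ribosomal RNA processing, and overlaps an exon of a long noncoding RNA on the opposite strand (chr9:4850297-4850375, plus strand). The protein-coding hosts are all transcribed on the strand of their hairpin. The miR-101 hairpins are printed because a single guide is cut from both, with the counted arms in capitals.

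MIR101-1: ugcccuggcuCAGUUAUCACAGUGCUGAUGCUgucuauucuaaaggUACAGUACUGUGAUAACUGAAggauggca
MIR101-2: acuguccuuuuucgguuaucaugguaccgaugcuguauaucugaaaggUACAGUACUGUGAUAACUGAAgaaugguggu

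The capitals at the right of both lines are the same 21 bases of miR-101-3p, whereas miR-101-5p is found in MIR101-1 only. miR-26a-5p likewise lies in 2 hairpins, MIR26A1 and MIR26A2. How reads of such miRNAs were counted is not given in the sources used here. Among 109 miRNAs found in exactly 2 hairpins, 72.2% of the counts above 0 were even numbers, against 47.4% for 1882 miRNAs with 1 hairpin. The counts of miR-26a-5p and of miR-101-3p were even in 4 of 6 libraries each. Whether reads were added at both loci was not tested. Such counting would raise the levels of these guides against the other arms and would cancel between input and m7G-RIP.

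The input libraries held 16466178 to 19628046 counts each and the m7G-RIP libraries 1654102 to 3105129, and edgeR's trimmed mean of M-values (TMM) factors were used to scale the libraries. Levels are in CPM, the standard unit of a count relative to library size, on these scaled sizes, and 3 counts equal 0.235 to 0.262 CPM in the input and 0.676 to 1.11 CPM in m7G-RIP. Such floors cover counting error only. Intestinal identity was checked on input levels. miR-192-5p, miR-194-5p and miR-215-5p, which mark intestinal epithelium, had mean levels of 3507 to 54882 CPM, and 5 epithelial markers of the miR-200 family had 260 to 20823 CPM. Of 8 markers of liver, muscle, blood and endothelium, miR-122-5p of liver and miR-223-3p of myeloid cells had 0 counts in each input library, and the other six were detected in all 3. The blood-cell markers miR-142-3p and miR-451a had 62, 75 and 78 counts and 92, 26 and 53 counts, and the muscle markers miR-133a-3p and miR-206 had means of 60.7 and 0.164 CPM. However, miR-1-3p, a muscle miRNA, had 644 ± 35.3 CPM (SD, n = 3), and miR-126-3p, an endothelial one, had 778 ± 40.6 CPM (SD, n = 3).

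The first comparison asks how the arms rank in the cells themselves. All arms are 21 or 22 bases long and were counted as whole reads, so no length correction was applied. miR-26a-5p, the family's main guide, had 563770, 723508 and 583521 counts in the 3 input libraries. That was 51886 ± 4389 CPM (SD, n = 3) and 3.54% ± 0.15 of all counts, which placed it 7th among the miRNAs of the input. Next came miR-26b-5p with 2693 ± 302 CPM (SD, n = 3), from 28134, 38324 and 30681 counts. The other EZH2 repressor, miR-101-3p, had 15007, 17004 and 15352 counts, or 1317 ± 32.8 CPM (SD, n = 3). In the input there were thus 37.6 to 42.5 counts of miR-26a-5p for each count of miR-101-3p, and 18.9 to 20.0 for each of miR-26b-5p. A bulk level is an average over cells, so fewer cells with a miRNA and less of it per cell cannot be told apart.

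The passengers were rare. miR-26a-2-3p had 10.1 ± 1.09 CPM (SD, n = 3), miR-26b-3p 7.53 ± 0.27 CPM (SD, n = 3) and miR-26a-1-3p 5.44 ± 0.59 CPM (SD, n = 3). miR-101-5p had only 5, 3 and 7 counts. No neighbours in this order of 7 arms overlapped between their input libraries. Of all miR-26a counts, the 3p arms made up 0.0301% ± 0.0048 (SD, n = 3) in the input, against 0.280% ± 0.023 (SD, n = 3) for miR-26b. In miR-101 the counted passenger, miR-101-5p, took 0.0176% to 0.0456%. The exact Clopper-Pearson 95% interval was 0.0036% to 0.0515% in the lowest library and 0.0183% to 0.0939% in the highest. miR-101-5p lies in MIR101-1 only, whereas the guide lies in both miR-101 hairpins. The 5p arm of the other hairpin was not among the 7 arms, so the full passenger share of miR-101 was not measured. For miR-26a the passengers of both hairpins were summed, so these shares are not directly comparable.

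**Figure D1:**
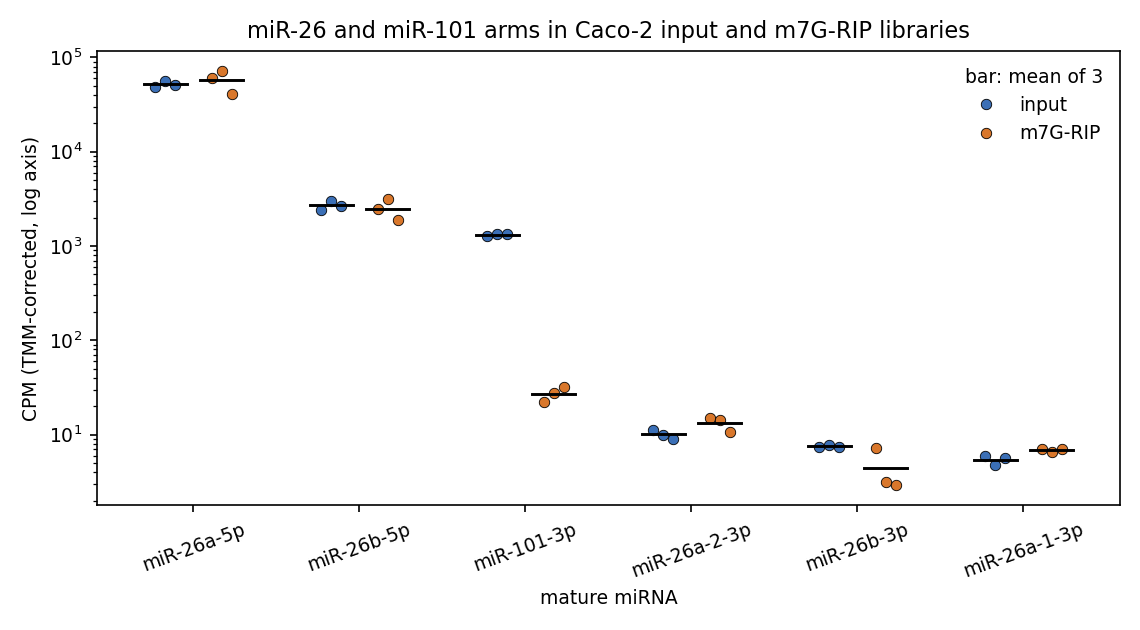
CPM on a log axis for the 6 arms that passed the filter on low counts, with 1 point per library (blue input, orange m7G-RIP) and a bar at the mean of 3. The miR-101-3p points lie at 1279 to 1340 CPM for the input but at 22.1 to 31.7 CPM for m7G-RIP, while the points of miR-26a-5p and miR-26b-5p overlap between the groups.

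In the second comparison, of m7G-RIP with input, miR-101-3p was strongly depleted, by 48.9-fold, while none of the 5 miR-26 arms was called in either direction. Of the 7 arms, 6 passed edgeR's filter and were tested along with 794 other miRNAs, and miR-101-5p had too few counts. Calls were made with the quasi-likelihood test of edgeR where its p, adjusted over all 800 miRNAs by the Benjamini-Hochberg method, was under 0.05. By this rule 1 of the 6 was depleted, where 38.1% of all tested miRNAs were. DESeq2's Wald test called 3 of the 6 depleted, adding miR-26b-5p and miR-26b-3p, and 337 of all 800. None of the 6 was enriched, where 40.1% of all tested miRNAs were. The count was 0 by edgeR, 0 at an unadjusted p under 0.05 and 0 by DESeq2's Wald test. That Wald test called 274 of the 800 enriched.

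miR-101-3p fell to 91, 122 and 86 counts in m7G-RIP, or 27.1 ± 4.81 CPM (SD, n = 3). Every m7G-RIP library was below every input library by a wide margin, and all 3 stood well above the floor of 3 counts. The log2 enrichment of miR-101-3p was -5.61 (standard error 0.19, 95% interval -6.01 to -5.21, edgeR adjusted p = 9.37e-11). In the order of log2 enrichment it stood 14th from the bottom of 800. Of the 13 below it, 12 did not exceed 3 counts in any of the m7G-RIP libraries. Among the 265 tested miRNAs whose average log2 CPM was 5 or more, only miR-450a-5p was lower, at -6.65 (standard error 0.33). Next above it were miR-19a-3p at -5.58 (standard error 0.21), miR-32-5p at -5.56 (standard error 0.23) and miR-19b-3p at -5.54 (standard error 0.40), and these 3 differ from miR-101-3p by less than their standard errors. No scaling moved miR-101-3p above a log2 enrichment of -4.50.

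miR-26a-5p had 249996, 315182 and 109911 counts in m7G-RIP, or 57384 ± 15504 CPM (SD, n = 3). The m7G-RIP libraries lay on both sides of the input, with replicates 1 and 2 above every input library and replicate 3 below. The log2 enrichment was 0.15 (standard error 0.19, 95% interval -0.26 to 0.55, edgeR adjusted p = 0.482), or place 399 of 800 from the bottom, close to the median of all tested miRNAs at 0.16. Most of those 800 are less abundant. Among the 265 whose average log2 CPM was 5 or more, the median was -0.83. There miR-26a-5p stood 175th from the bottom and miR-26b-5p 165th, both above that median. Leaving out m7G-RIP replicate 2 gave -0.19 for miR-26a-5p, so its sign did not hold in that refit. The filter and TMM factors were redone there too, with a median shift of -0.14 over the miRNAs tested in both. For miR-26b-5p, with 10053, 13874 and 5155 counts in m7G-RIP, the log2 enrichment was -0.11 (standard error 0.18, 95% interval -0.50 to 0.27, edgeR adjusted p = 0.558). Its m7G-RIP levels of 2440, 3124 and 1899 CPM reached above and below the input range of 2398 to 3002 CPM.

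Where zero lies depends on the scaling, and the miR-26 arms sit near zero. By share of all counts miR-26a-5p went from 3.54% ± 0.15 (SD, n = 3) in the input to 8.30% ± 1.76 (SD, n = 3) in m7G-RIP, and its place among the miRNAs from 7th to the third. Total counts in place of TMM factors shift the median of all tested miRNAs by 1.09. They gave a log2 enrichment of 1.23 for miR-26a-5p and of 0.98 for miR-26b-5p (edgeR adjusted p = 2.54e-05 and 0.000155). By this scaling 4 of the 5 miR-26 arms were called enriched, as were 442 of all 800 tested miRNAs. With DESeq2's size factors, a shift of -0.34, miR-26a-5p was at -0.20 and miR-26b-5p at -0.46 (adjusted p = 0.313 and 0.0286, edgeR). The direction of the miR-26 arms against input is therefore not settled by these data, while miR-101-3p was depleted under each scaling, from -5.96 to -4.50.

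**Figure D2:**
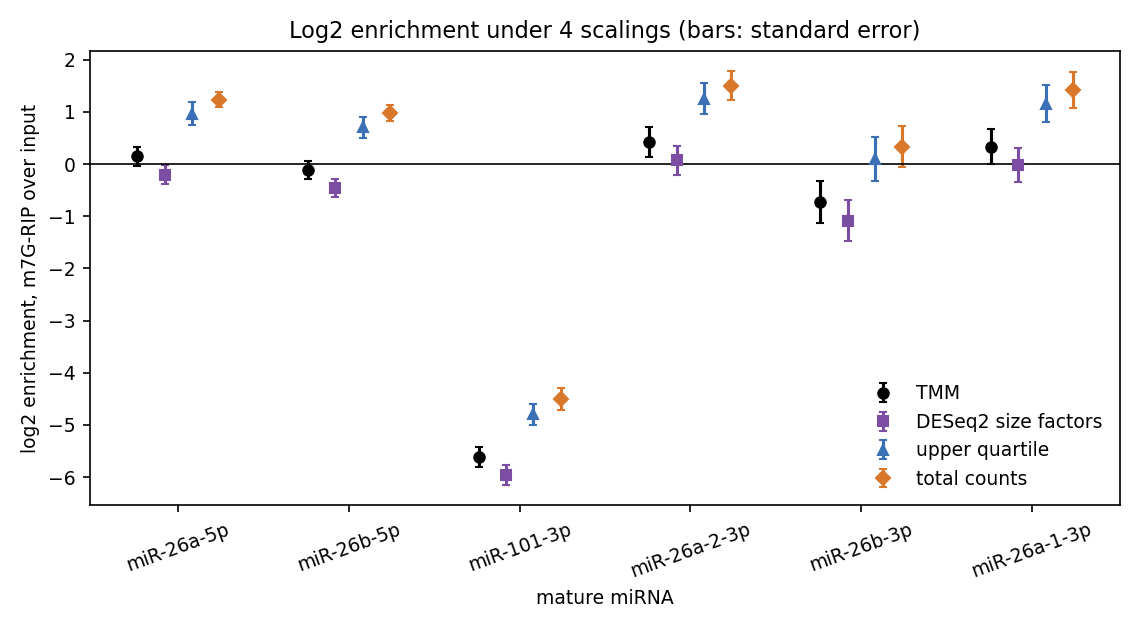
Log2 enrichment of the 6 tested arms with its standard error under TMM factors, DESeq2's size factors, upper-quartile factors and total counts. The 5 miR-26 arms lie between -1.09 and 1.50 and 4 of them change sign with the scaling, all except miR-26a-2-3p, whereas miR-101-3p lies between -5.96 and -4.50.

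**Figure D3:**
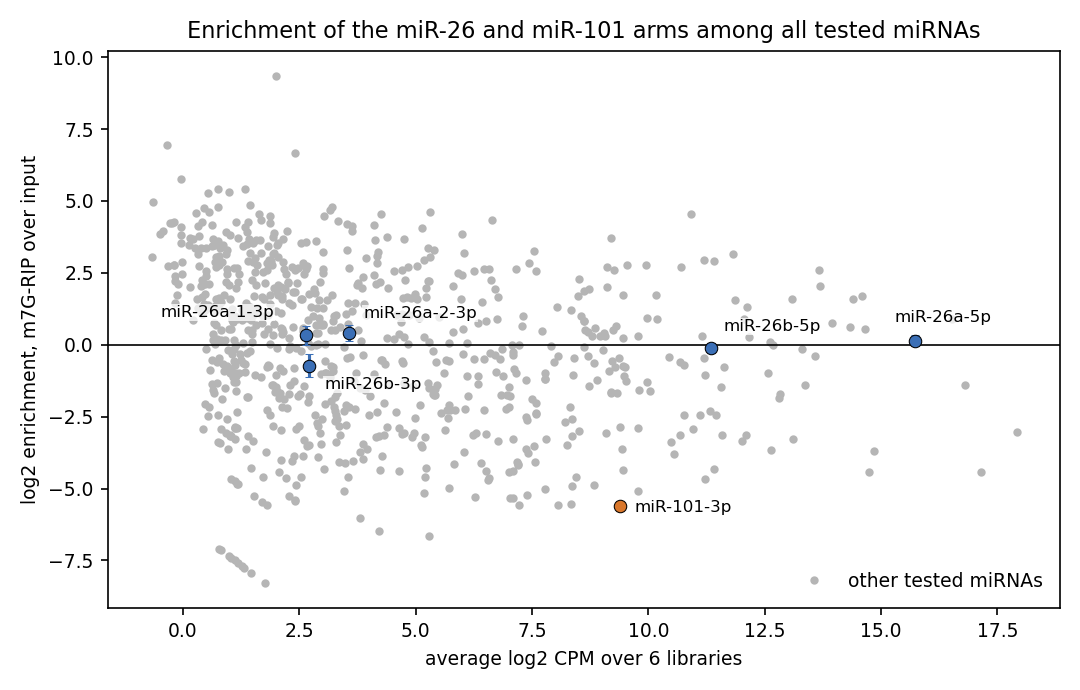
Log2 enrichment of m7G-RIP over input against the average log2 CPM over 6 libraries for all 800 tested miRNAs (grey), with miR-26 arms in blue and miR-101-3p in orange and bars for the standard error. miR-101-3p lies at the lower edge of the cloud for its abundance, at -5.61, and the miR-26 arms lie between -0.73 and 0.42.

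Ratios of arms within a library are free of the scaling, and 8 of them were compared. With 3 libraries against 3 the two-sided exact permutation test cannot give a p below 0.10, nor an adjusted p below 0.05. For miR-26a-5p over miR-101-3p the ratio went from 37.6, 42.5 and 38.0 in the input to 2732, 2573 and 1271 in m7G-RIP. The groups were far apart. The mean log2 ratio was higher by 5.72 in m7G-RIP (5.30 ± 0.10 in the input and 11.02 ± 0.61 in m7G-RIP, SD, n = 3 each; exact permutation p = 0.1, 0.2 after Benjamini-Hochberg adjustment over the 8 ratios), or 52.8-fold. For miR-26b-5p over miR-101-3p the difference was 5.47 on the log2 scale (SD 0.13 and 0.52, n = 3 each; exact permutation p = 0.1, adjusted 0.2), or 44.5-fold. m7G-RIP replicate 3 had the lowest of the m7G-RIP ratios in both cases.

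Between the miR-26 guides, which share their seed and most of their sequence, the difference was small. The ratio of miR-26a-5p to miR-26b-5p was 20.0, 18.9 and 19.0 in the input and 24.9, 22.7 and 21.3 in m7G-RIP. All m7G-RIP libraries lay above all input libraries, by 0.25 on the log2 scale or 1.19-fold (SD 0.05 and 0.11, n = 3 each; exact permutation p = 0.1, adjusted 0.2). C11U alone separates the first 20 bases of these guides, and the study's methods allow 1 mismatch in mapping with STAR, although the submitters' notes name Bowtie2 for this table. Exchange of reads between the guides was not measured.

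**Figure D4:**
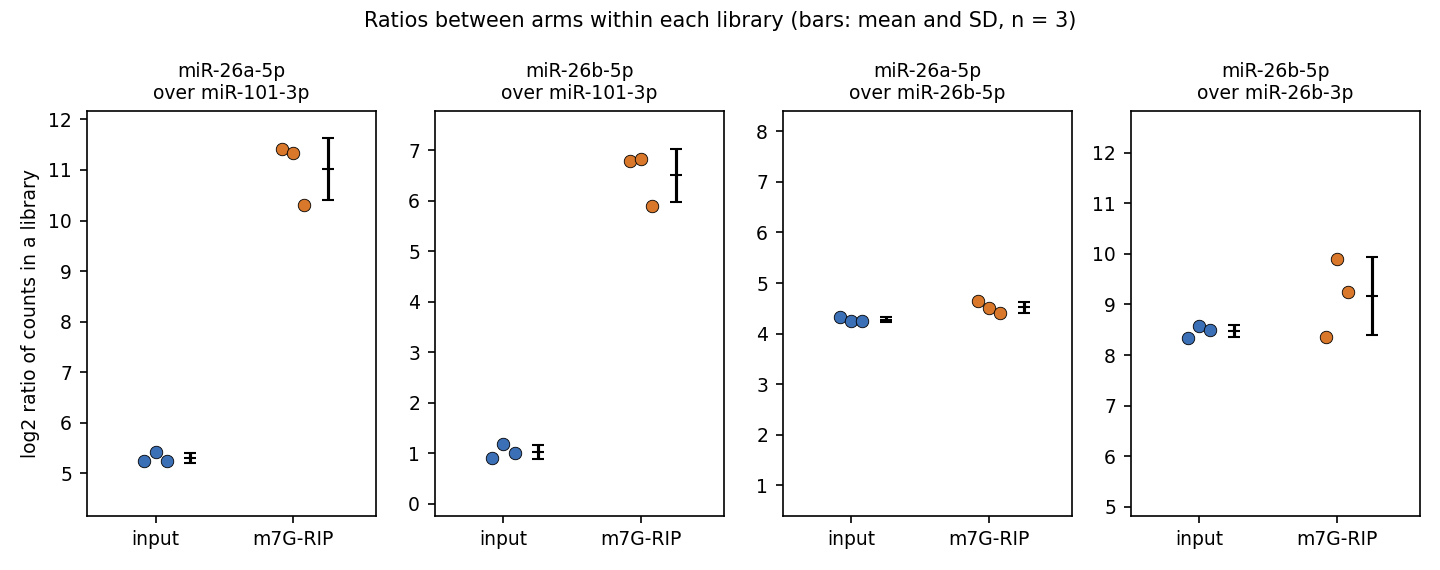
Log2 ratio of counts between 2 arms in each library, with the mean and SD of 3 libraries beside the points; each panel spans 8 log2 units. Both ratios over miR-101-3p rise by 5.72 and 5.47 from input to m7G-RIP, against 0.25 for miR-26a-5p over miR-26b-5p and 0.70 for the arms of miR-26b, whose groups overlap.

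The passenger arms were compared next, since guide and passenger come from a common hairpin. miR-26a-1-3p, which reports on MIR26A1, had 69, 61 and 65 counts in the input and 29, 29 and 19 in m7G-RIP. This gave a log2 enrichment of 0.33 (standard error 0.33, 95% interval -0.39 to 1.05, edgeR adjusted p = 0.368). miR-26a-2-3p, which reports on MIR26A2, had 131, 128 and 103 counts in the input and 62, 64 and 29 in m7G-RIP, with a log2 enrichment of 0.42 (standard error 0.28, 95% interval -0.19 to 1.03, edgeR adjusted p = 0.182). The ratio of these passengers to each other ranged from 0.479 to 0.633 over the input libraries and from 0.457 to 0.661 over the m7G-RIP ones. These ranges overlap (difference of mean log2 ratios -0.06, exact permutation p = 0.7), and the counts are low enough to hide a moderate shift between the miR-26a genes.

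miR-26b-3p had 86, 100 and 85 counts in the input, and 30, 14 and 8 in m7G-RIP. m7G-RIP replicate 1, at 7.28 CPM, was close to the input range of 7.33 to 7.83 CPM, and the other two were lower at 3.15 and 2.95 CPM. The log2 enrichment of -0.73 (standard error 0.40, 95% interval -1.59 to 0.13, edgeR adjusted p = 0.110) did not pass, and without m7G-RIP replicate 1 it was -1.32 (edgeR adjusted p = 0.00443). The share of the passenger among miR-26b counts was 0.305%, 0.260% and 0.276% in the input, and 0.298%, 0.101% and 0.155% in m7G-RIP, so the groups overlapped (exact permutation p = 0.3). For miR-26a the share was 0.0365% ± 0.0071 (SD, n = 3) in m7G-RIP and overlapped the input range too (exact permutation p = 0.2). miR-101-5p had 1, 0 and 0 counts in m7G-RIP. With so few counts of both arms, limits were set from the floor of 3 counts over 122 and over 86 counts of miR-101. They allow a miR-101-5p share of up to 2.46% and 3.49% in replicates 2 and 3 (exact Clopper-Pearson 95% upper limits 2.98% and 4.20%). These limits are above the input share, and a change in the arms of miR-101 was not detectable at this depth.

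Guanosine is the base that can carry m7G, so the sequences were set beside the enrichment. miR-26a-5p and miR-26b-5p have 5 guanosines each, and miR-101-3p has 4. Over the 714 tested miRNAs with a RefSeq sequence, the percentage of guanosine and the log2 enrichment had a Pearson r of 0.498 and a Spearman rho of 0.497; these points share the same 6 libraries and are not independent. Among the 85 miRNAs with 4 guanosines the median log2 enrichment was -1.71 with quartiles of -3.32 and -0.20, so miR-101-3p, at -5.61, is far below the lower quartile of miRNAs with its guanosine number. The lowest of those 85 is at -6.65. Among the 102 miRNAs with 5 guanosines the median was -1.44 and the upper quartile -0.02. miR-26a-5p, at 0.15, is above that quartile, and miR-26b-5p, at -0.11, just under it. With fewer guanosines the medians were higher, at -0.73 for 3 (55 miRNAs) and 0.77 for 2 (44 miRNAs). The tested arms have 2 to 5 guanosines. Over this range the medians fell from 2 to 4 guanosines and were slightly higher at 5 than at 4. The part of guanosine content in the differences between these arms was not tested.

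The arrangement of these bases differs between the guides. Each miR-26 guide holds 2 separate GG runs, and miR-101-3p holds none, its guanosines being single. Of the 714 miRNAs, 185 have no GG and 529 have at least one, with median log2 enrichments of -0.65 and 0.50. The miR-26 guides have a longest G run of 2, and over the 268 miRNAs of that class the median was -0.97. It was -0.63 for the 184 with a longest run of 1 and 0.92 for the 152 with 3. The contrast by GG was thus not seen between runs of 1 and 2. In the subset whose average log2 CPM was 5 or more, the medians were -2.16 without GG (60 miRNAs) and -0.39 with GG (177 miRNAs). Run lengths were not separated in that subset. miR-26a-2-3p also has no GG and 2 guanosines in all, with a log2 enrichment of 0.42, which was not called. In the hairpins, a search on the hairpin strand for 4 runs of at least 2 G with linkers of 1 to 7 bases, a loose G-quadruplex pattern, matched MIR26A1 and none of the other four. It matched 457 of 1562 hairpins in the RefSeq table (29.3%). miR-26a-1-3p from MIR26A1 and miR-26a-2-3p from MIR26A2 had nearly the same log2 enrichment, 0.33 and 0.42.

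**Figure D5:**
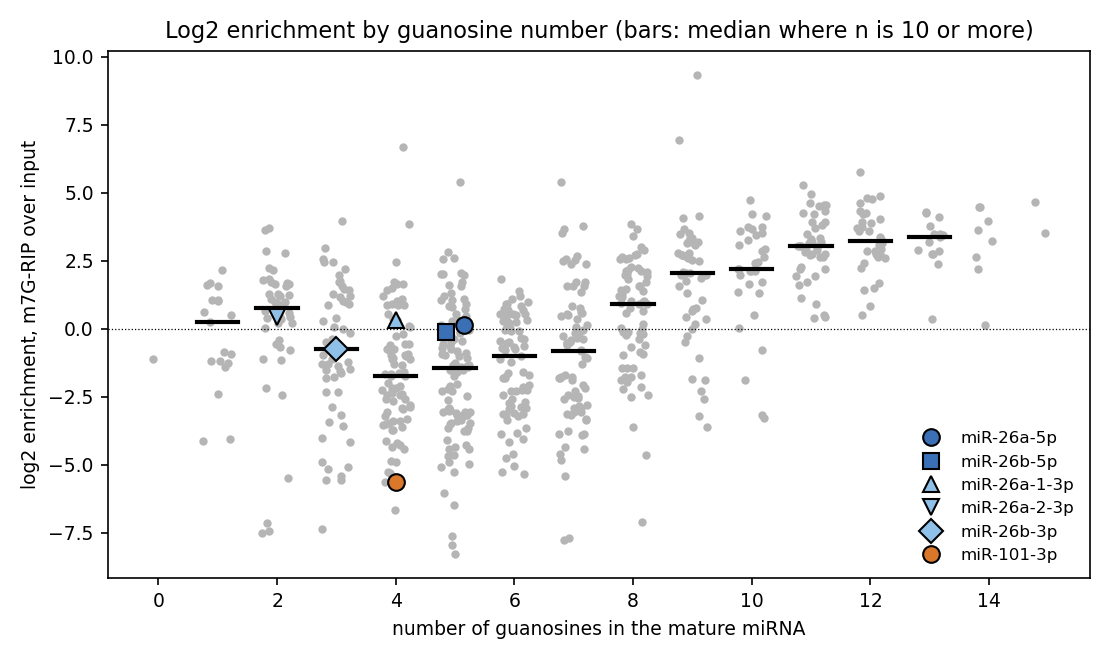
Log2 enrichment of m7G-RIP over input by the number of guanosines in the mature miRNA for 714 tested miRNAs (grey, spread sideways for visibility), with black bars at medians. miR-101-3p, with 4 guanosines, lies at -5.61 under a median of -1.71, and the miR-26 guides, with 5, lie at 0.15 and -0.11 over a median of -1.44.

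miR-26a-5p and miR-101-3p were also set beside other miRNAs reported to target EZH2. Of the 12 on this list, written from general knowledge, 7 were tested, 4 were enriched and 3 depleted, with a median log2 enrichment of 0.59, set beside 0.16 over all tested miRNAs, of which 40.1% were enriched and 38.1% depleted. All 4 enriched members belong to the let-7 family, whose members are near-identical and can share reads. On the log2 scale the enrichment was 2.93 ± 0.17 (standard error) for let-7b-5p, 1.71 ± 0.15 for let-7a-5p, 1.33 ± 0.18 for let-7c-5p and 0.59 ± 0.17 for miR-98-5p. The depleted ones were miR-30d-5p at -1.41 (standard error 0.19), miR-25-3p at -1.47 (standard error 0.17) and miR-138-5p at -3.19 (standard error 0.60), the last on 5, 33 and 0 counts in m7G-RIP. All 7 had adjusted p-values of 0.00694 or less (edgeR). These calls use TMM factors, and values of this list under the other scalings were not compared. miR-101-3p lay below every tested miRNA of this list. miR-144-3p had 24, 22 and 14 counts in the input and 0 in each m7G-RIP library, and was not tested. miR-124-3p, miR-137, miR-214-3p and miR-217 had at most 3 counts in any library.

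Within the seed family, 2 more miRNAs of the table share the miR-26 seed among those with a RefSeq sequence. The miRNAs without such a sequence were not searched. miR-1297 (uUCAAGUAauucaggug), which has the first 15 bases of miR-26b-5p, had 9, 10 and 16 counts in the input and 2, 1 and 4 in m7G-RIP, too few to be tested. miR-4465 had 0 counts in all 6 libraries. Hence, among the miRNAs searched, nearly all counts with this seed in Caco-2 cells were those of miR-26a-5p or miR-26b-5p.

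Finally, the miRNAs with the most similar pattern over the 6 libraries were found among 262 others whose average log2 CPM was 5 or more, by the Euclidean distance of mean-centred log2 CPM. miR-1-3p (distance 0.278, log2 enrichment 0.23), miR-146b-5p (distance 0.366, log2 enrichment 0.26) and miR-302a-5p (distance 0.438, log2 enrichment -0.17) were closest to miR-26a-5p. As with miR-26a-5p, m7G-RIP replicate 3 had the lowest level of the 6 libraries in each of the 3. They were chosen by likeness over these same libraries, so this is no separate result. miR-21-3p (distance 0.434, log2 enrichment -5.32), miR-181a-3p (distance 0.559, log2 enrichment -5.29) and miR-19a-3p (distance 0.566, log2 enrichment -5.58) were closest to miR-101-3p.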

How the data were processed

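Small RNA libraries of 3 input and 3 m7G-RIP samples of Caco-2 cells were analysed. The deposited table holds whole-number counts for each mature miRNA, which the authors made by trimming adaptors with Trimmomatic, mapping to GRCh38 and counting with featureCounts on miRBase, without pooling replicates. The study's methods name STAR (up to 1 mismatch and 10 loci a read), while the submitters' processing notes name Bowtie2. How reads with several loci were counted is not given in the sources used here.

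edgeR 4.0.16 (R 4.3.3) gave log2 enrichment over the whole table: filterByExpr (minimum count 10, minimum total 15), TMM factors, quasi-likelihood test, Benjamini-Hochberg adjustment. The standard error is the absolute log2 value divided by the square root of F. The edgeR steps were tested on simulated counts in which most miRNAs were unchanged, so the scaling of these data was not tested. Ratios and shares were not simulated. Ratios of arms (0.5 counts added) and passenger shares were compared by exact permutation tests, two-sided, with Python 3.11.15 and scipy 1.17.1. Sequences come from RefSeq and host genes from GENCODE release 44.

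Groups come from the labels. Total counts were 1654102 to 19628046 per library; the lower m7G-RIP totals limit the precision for passenger arms. Alternatives covered scaling, filters, DESeq2 1.42.0, the pseudocount, the replicate block and leaving out each library. The text names the 7 arms, seed sharers, a list of other EZH2-targeting miRNAs and the 3 closest patterns of each main guide; the neighbours of miR-101-3p in rank and the guanosine counts were chosen after values were seen. Members and lists were chosen with earlier results of these data known.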

Additional observations from a re-analysis of the deposited data

How the results depend on the processing

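miR-101-3p stayed depleted under all 13 alternatives (-5.96 to -4.50), and the ratios of the miR-26 guides over miR-101-3p stayed between 5.31 and 6.08 log2 units higher in m7G-RIP. The miR-26 arms moved with the scaling. Total counts gave 1.23 for miR-26a-5p, 1.42 for miR-26a-1-3p, 1.50 for miR-26a-2-3p, 0.98 for miR-26b-5p and 0.33 for miR-26b-3p; upper-quartile factors (median shift 0.82) gave 0.97, 1.15, 1.25, 0.70 and 0.10. Both called 4 arms enriched. DESeq2's size factors gave -0.20 for miR-26a-5p, -0.014 for miR-26a-1-3p, -0.46 for miR-26b-5p and -1.09 for miR-26b-3p, and DESeq2's Wald test -0.20, -0.015, -0.46 and -1.09. Without a filter (median shift -0.31) they were -0.16 for miR-26a-5p, -0.42 for miR-26b-5p and -1.03 for miR-26b-3p. These 3 settings each called 3 arms depleted. Over all tested miRNAs the enriched and depleted calls were 321 and 305 as reported, 442 and 198 by total counts, and 418 and 227 by upper quartiles. They were 281 and 342 by DESeq2's size factors, 274 and 337 by its Wald test, and 320 and 423 of 1744 without a filter. With at least 10 counts in every library they were 182 and 175 of 426 tested, and miR-26b-3p had no value.

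With each library left out, log2 enrichment was -0.19 to 0.26 for miR-26a-5p and -1.32 to -0.63 for miR-26b-3p, and 1 to 2 arms were depleted. The log2 ratio difference was -0.45 to 0.0064 for miR-26a-5p over miR-26a-1-3p (-0.25 as reported) and -0.22 to 0.055 between the miR-26a passengers. The passenger share of miR-101 differed by -0.0322 to 0.511 percentage points (0.330 as reported), resting on 1 count in m7G-RIP replicate 1. The cause of these changes was not tested.

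Same-numbered libraries were not shown to be paired: deviations of pairs had correlations of -0.0142, -0.0275 and 0.0600, and 2 of 6 libraries correlated best with their own number. With the replicate block 296 miRNAs were enriched and 295 depleted, miR-101-3p was at -5.62 and miR-26a-5p at 0.11, and no arm changed its call.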
